A study of Mus musculus with 4 samples.

Results

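Perlecan, its companion proteoglycans and the enzymes that make heparan sulfate were examined as a set of 38 genes, chosen by symbol for the known role of their products. Of these, 37 were found among the 26822 genes of the expression table, and Lum was not analysed here. The set, and the gene pairs and lists used below, were drawn up with earlier results of these data known. The value of Hspg2 in library 4 was among them, so that its difference there is given as a description. The study asks how YAP and TAZ, which act through the DNA-binding TEAD proteins, drive vessel growth. Here, the transcripts of endothelial cells (ECs) from growing retinal vessels were measured by RNA-seq in 4 libraries, which form 1 group with no mutant or treated library beside it. The mice were of the C57BL/6J strain, at postnatal day 6 (P6), and the labels give their treatment as control. Each retina pair was dissociated with collagenase, and live CD31+/CD45- cells, that is ECs without leukocytes, were collected by flow sorting. The labels describe the RNA isolation for HUVECs, a human cell, so that this text may belong to other samples. The study calls the libraries independent samples, whereas the labels do not say whether they came from separate animals or litters, so that p-values measure the spread between these 4 libraries, part of which may be technical.

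Proteoglycans are core proteins that carry long sulfated sugar chains. Perlecan, agrin and collagen XVIII carry heparan sulfate in basement membranes, while syndecans and glypicans carry it on the cell surface, where it binds VEGF, FGF and other ligands. The chain is started on a serine by xylosyltransferases, lengthened in the Golgi by exostosins, then modified by N-deacetylase/N-sulfotransferases, an epimerase and O-sulfotransferases, and it is trimmed outside the cell by sulfatases and heparanase.

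The deposited values are whole numbers with near-equal totals, here called normalised read counts. These totals ran from 14843847 to 15017241 over the genes used, of which 20117 to 20880 were above 0 in a library. How many reads stand behind each value is not known. The SD over the libraries was under the square root of the mean for 13.8% of detected genes (defined below) and for 2 detected members. How the normalisation acts on high values is not given, so that folds, shares and SDs hold for this scale only. Low values piled up on single numbers, namely 9 in library 1 and 6 in libraries 2 to 4, so that a value near 10 may rest on very few reads. A gene with a mean of at least 10 is called detected. Levels of different genes are compared per kb of exon, and values as deposited are set beside them to show where the length decides. Exons are the union over GENCODE M21 basic transcripts.

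Each of 12 endothelial markers passed the minimum, and their summed normalised read count was 67321 in library 4, against 68498 to 69571 in libraries 1 to 3. Of the 12, 8 were lowest and 1 was highest in library 4, beside 33% and 30.6% of all detected genes. Transcripts of other retinal cells were present and were mostly highest in library 4. The sum of 11 photoreceptor markers was 15902 there, against 5267 to 6643 in the other libraries, and all 11 had their highest value in library 4. The sum of 10 pericyte and smooth muscle markers was 3801 in library 4, against 586 to 2246, with 8 of the 10 highest there. For 9 markers of progenitors and Müller glia the sum was 4130 in library 4, against 2089 to 2869, with 7 of the 9 highest there. For 12 markers of other neurons it was 2534 in library 4, against 1313 to 1361, with only 5 of the 12 highest there and 1 lowest. The remaining sums lay within the range of the other libraries or close to it, with 3020 in library 4 against 2407 to 2982 for fibroblasts, 1180 against 721 to 1526 for astrocytes and 33 against 28 to 133 for microglia and leukocytes. The astrocyte marker Aqp4 was listed at 0 in all 4 libraries. What part these cells had in the levels below was not tested, and in such bulk samples fewer cells of a type and less RNA per cell cannot be told apart.

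Most of the set was expressed in P6 retinal ECs. Of the 37 genes, 32 were detected, beside 56% of all genes, and 15 had a mean normalised read count of at least 1000, beside 19.7% of all genes. The 5 genes under 10 were Gpc5, Dcn, Extl1, Ndst4 and Hpse. The detected members had a median level of 227 per kb of exon, against 161 for all 15012 detected genes. Of these members 7 reached the 90th percentile of detected genes per kb, which stood at 854. They were both nidogens, Bgn, Col18a1, Agrn, Ext2 and Sdc3. The scale was narrow at its upper end, since the highest gene of the table, at 2854 per kb, was only 1.85-fold above the 99th percentile of 1546.

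**Figure D1:**
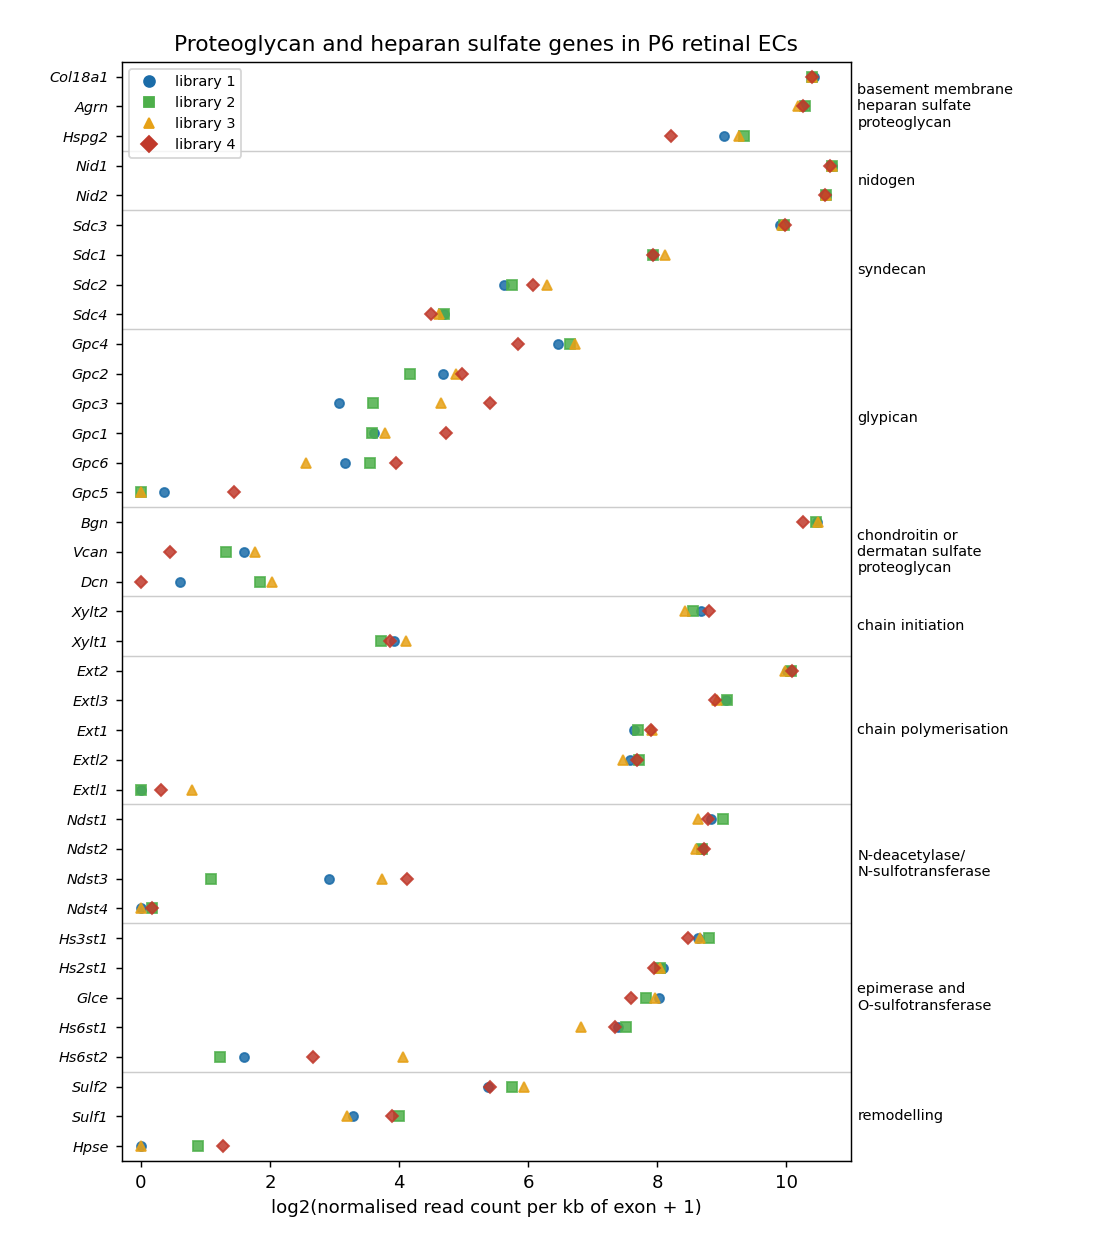
Levels of the 37 genes in the 4 libraries, by role, as log2 of the normalised read count per kb of exon plus 1 on the horizontal axis; each marker is 1 library. The nidogens, Col18a1, Agrn, Bgn, Ext2 and Sdc3 form the upper end, and Gpc5, Dcn, Extl1, Ndst4 and Hpse lie at the lower end.

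Ordered by level per kb, 27 of the 36 pairs of neighbours overlapped between libraries. Only neighbours were compared here, so that a break between them need not part genes further along the order. The order ran from Nid1 over Nid2 to Bgn and Col18a1, which overlapped each other, and then to Agrn, Ext2, Sdc3 and Hspg2, each of which was apart from the one before it. Bgn, at 1230 per kb in library 4, nonetheless overlapped Agrn, at 1254 per kb in library 2. From Hspg2 through Extl3, Ndst1, Ndst2 and Hs3st1 to Xylt2 every neighbour overlapped the next. The next break lay between Xylt2 at 394 ± 43.4 per kb and Hs2st1 at 261 ± 10.3 per kb (SD, n = 4). Hs6st1 at 155 ± 30.0 per kb and Gpc4 at 87.0 ± 21.8 per kb were again apart, as were Sulf2 at 48.9 ± 9.59 per kb and Gpc2 at 25.2 ± 5.99 per kb. Gpc3, further down, still reached 41.3 per kb in library 4, above Sulf2 at 40.6 per kb in library 1. Below Gpc2 all neighbours overlapped.

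Related genes were compared pairwise by an exact two-sided permutation test on log2((value + 1) per kb), 4 values against 4. Of 37 pairs drawn up, 35 could be run, and those with Lum could not. In 29 of them the values did not overlap, with an adjusted p of 0.0345 in this exact permutation test (Benjamini-Hochberg over the 35 pairs, raw p = 0.0286, the smallest that 70 splits can give). Of all pairs of detected genes, related or not, 89% did not overlap either, so that the count is no trait of this set, and each pair is read by its size. The test does not use that both genes come from the same libraries, and the smallest p of an exact sign-flip test on the differences within libraries was 0.125. Within libraries, 32 of the 35 pairs had 1 direction in 4 of 4, 3 of them with overlapping values. Unless stated otherwise, the pairs below passed this test with that adjusted p and had 1 direction in 4 of 4 libraries.

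The promoters of 3 members are shown for the genes on which the results turn. Nid1 had the highest level per kb of the whole set, Ext2 had the highest of the enzymes, and Hspg2 was the perlecan gene, with a low value in library 4. Each run below covers the first 190 bases of the RefSeq promoter window (GRCm38.p6), 5′ to 3′ on the gene's strand. The window starts 250 bases before the start used for it, which for Nid1 and Hspg2 differs from the start of the gene positions given below. They lie at chr13:13437352-13437541 (plus strand) for Nid1, chr2:93822629-93822818 (minus strand) for Ext2 and chr4:137468553-137468742 (plus strand) for Hspg2. Capitals mark GGAATG, the core of the motif bound by TEAD factors, in Nid1 and Ext2, and GGGCGG, the GC box bound by Sp1, in Hspg2. The run of Nid1 also holds GGGCGG near its end, left in lower case.
Nid1: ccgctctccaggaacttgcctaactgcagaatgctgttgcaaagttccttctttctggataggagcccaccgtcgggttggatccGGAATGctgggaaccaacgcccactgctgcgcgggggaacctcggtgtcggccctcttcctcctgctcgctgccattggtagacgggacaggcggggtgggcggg
Ext2: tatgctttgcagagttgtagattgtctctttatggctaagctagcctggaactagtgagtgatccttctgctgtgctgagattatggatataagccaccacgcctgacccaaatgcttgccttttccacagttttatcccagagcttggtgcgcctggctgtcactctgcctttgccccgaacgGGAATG
Hspg2: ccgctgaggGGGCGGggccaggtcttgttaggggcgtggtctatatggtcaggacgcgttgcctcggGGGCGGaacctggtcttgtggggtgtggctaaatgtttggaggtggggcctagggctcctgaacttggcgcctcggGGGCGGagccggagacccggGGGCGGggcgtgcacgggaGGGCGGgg
Promoter windows of 300 bases were matched and used for 26 of the 37 genes, 32 windows in all. GGAATG, on either strand, was found in 7 of the 32 windows (21.9%), those of Nid1, Ext2, Col18a1, Gpc4, Hs6st2, Ndst2 and Sulf2, and in 14.7% of all 32851 windows of the table. GGGCGG, on either strand, was found in 23 of the 32 (71.9%) and in 35.7% of all windows. The windows of the table were not limited to detected genes, whereas most members were detected, so that these shares do not compare like sets. Neither motif can lie within the other, although neighbouring matches may share their outer G bases. The matches describe the sequence and say nothing of binding.

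The nidogens, which tie laminin to collagen IV and bind perlecan, were the highest members. Nid1 (ENSMUSG00000005397, chr13:13437551-13512269, GRCm38) had normalised read counts of 10232, 10188, 10175 and 9941 in libraries 1 to 4. Nid2 (ENSMUSG00000021806, chr14:19751265-19811787) had 7616, 7635, 7638 and 7584. Both were nearly constant, and both were lowest in library 4 by a few percent at most. Per kb Nid1 reached 1664 ± 21.5, the 99.5th percentile of detected genes, against 1562 ± 5.09 for Nid2, the 99.1th percentile (SD, n = 4), 1.06-fold. The difference was 0.091 ± 0.015 on the log2 scale, small but beyond the spread in each library. The exons of Nid2 share 8.96% of their length with Rtraf on the opposite strand, and whether counting used the strand is not given in the sources used here.

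Of the basement membrane proteoglycans, collagen XVIII and agrin were high and steady, and perlecan was lower per kb and varied. Col18a1, whose protein is also the source of endostatin, had normalised read counts of 9325, 9111, 9109 and 9173 in libraries 1 to 4. Agrn, which encodes agrin, the organiser of the neuromuscular junction, had 9596, 9782, 9034 and 9526. Neither gene had a library that stood apart. Per kb Agrn reached 1216 ± 40.9 against 1352 ± 14.9 for Col18a1, 0.900-fold, a log2 difference of -0.15 ± 0.047. This order rests on the exon lengths of 7799 and 6792 bases, since as deposited Agrn was the higher by a log2 difference of 0.047 and the values overlapped.

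Hspg2 (ENSMUSG00000028763, chr4:137468769-137570630, plus strand) encodes perlecan, a long core protein with heparan sulfate at its N-terminal end. Its normalised read count was 4183 in library 4, against 7435, 9184 and 8783 in libraries 1 to 3. Library 4 thus held 0.494 of the mean of the other libraries, which was 8467 ± 916 (SD, n = 3). No other basement membrane member showed such a gap, as the plot by library shows.

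**Figure D2:**
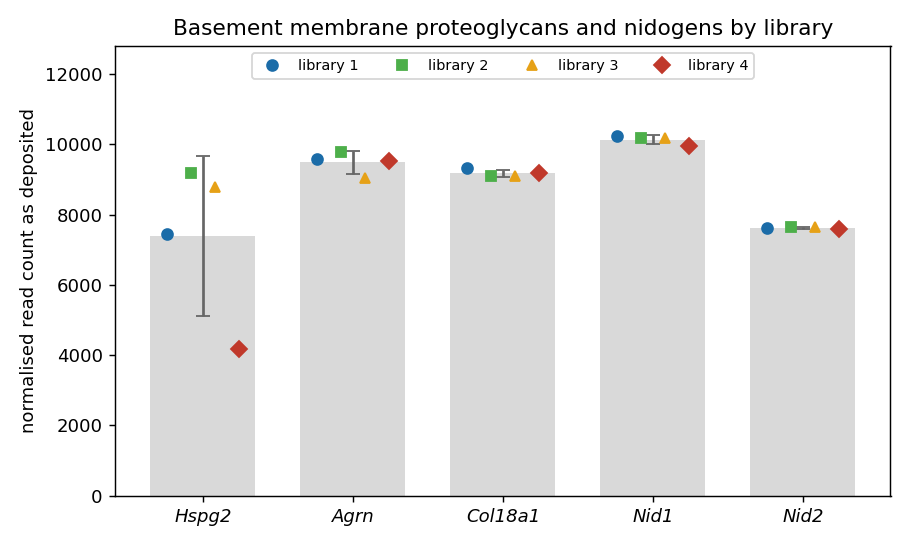
Normalised read count as deposited of Hspg2, Agrn, Col18a1, Nid1 and Nid2; bars are means of the 4 libraries, error bars the SD and markers the single libraries. Hspg2 lies at 4183 in library 4 and between 7435 and 9184 in the others, whereas the markers of the other genes lie close together; bars are not corrected for gene length.

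Per kb Hspg2 reached 520 ± 160, the 78th percentile of detected genes, against 1216 ± 40.9 for Agrn and 1352 ± 14.9 for Col18a1 (SD, n = 4). It was 0.428-fold Agrn (log2 difference -1.29 ± 0.53) and 0.385-fold Col18a1 (log2 difference -1.44 ± 0.53). Without library 4 the log2 differences were -1.03 and -1.19, still with no overlap. As deposited, without division by the 14217 exonic bases of Hspg2, both pairs overlapped, with log2 differences of -0.42 and -0.38. The share of Hspg2 in the summed level per kb of these 3 genes was 10.3% in library 4, against 16.7%, 19.9% and 19.8% in libraries 1 to 3. Set against its binding partner Nid1, the ratio of Hspg2 per kb was 0.180 in library 4, against 0.311, 0.386 and 0.370.

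The difference of Hspg2 in library 4 is described against other genes of high level. On the log2(value + 1) scale its difference in library 4 from the mean of the other libraries was -1.01, against a median of -0.028 over the 5279 genes with a mean of at least 1000. It was the third lowest of these 5279 differences, after Adgra2 and Ipo7, and the 13th in size when any library and either direction are counted. Of 1087 genes with a mean of at least 3000 and of 237 genes with a mean of at least 5000 it was both the lowest in library 4 and the one with the largest difference of any library. Neither minimum was a planned setting, and both leave out Adgra2 and Ipo7, whose means were 2030 and 1428. The other 14 members with a mean of at least 1000 lay between -0.35 (Glce) and 0.25 (Xylt2).

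**Figure D3:**
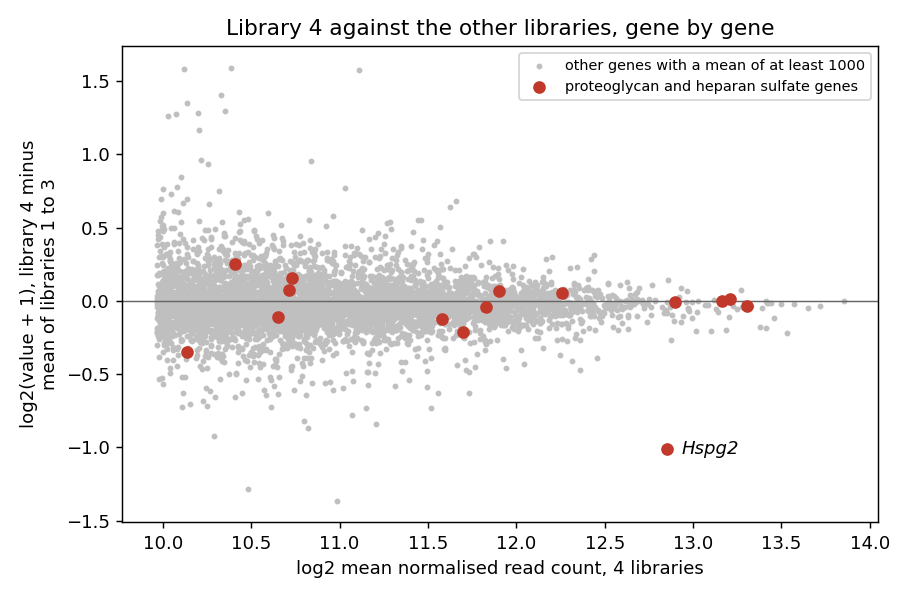
Difference of library 4 from the mean of libraries 1 to 3 on the log2(value + 1) scale, against the log2 mean normalised read count, for the 5279 genes with a mean of at least 1000 (grey) and the 15 members among them (red). Hspg2 lies at -1.01, while the other 14 members lie between -0.35 and 0.25.

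The SD of Hspg2 on the log2 scale lay beyond the trend of SD on mean, as it did for 0.113% of detected genes, but this rests on the value in library 4 that was known when the set was drawn up and is no test. Without library 4 no member lay beyond the trend, and the SD of Hspg2 was then 10.8% of its mean. Exonic length and place on the chromosome were set beside this value. The 91 genes with over 12000 exonic bases and a mean of at least 1000 had a median library 4 difference of -0.081. At the same minimum mean it was -0.017 for genes of 2000 to 4000 exonic bases and -0.098 for those of 10000 to 12000. Cdc42, which lies upstream on the same chromosome, had 3637 in library 4, against 3727, 3614 and 3665 in libraries 1 to 3. Usp48, which lies downstream, had 2321 in library 4, against 2512, 2447 and 2409. Ece1, further downstream, had 7559 in library 4, against 7517, 7566 and 7563. What part length or place had in the value of Hspg2 was not tested. The marker sums of photoreceptors and pericytes were highest in the same library, and their part in the value of Hspg2 was not tested.

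Syndecans, the transmembrane proteoglycans, were carried mainly by Sdc3. Sdc3 (ENSMUSG00000025743, chr4:130792537-130826319), also known as N-syndecan from nervous tissue, had normalised read counts of 4735, 4952, 4879 and 5040 in libraries 1 to 4. Its level of 986 ± 25.9 per kb was 3.91-fold that of Sdc1 (252 ± 17.1 per kb) and 16.1-fold that of Sdc2 (61.2 ± 13.1 per kb), while Sdc4 stood at 23.7 ± 1.54 per kb, 0.0240-fold Sdc3 (SD, n = 4). All 6 syndecan pairs were apart. Sdc1, the syndecan of epithelia and plasma cells, had 766, 770, 877 and 771, so that library 3 stood above the others, which were nearly equal. By Dixon's ratio of gap to range it was 1 of 3 detected members with 1 library far from the rest, with Gpc1 and Bgn, beside 6.3% of detected genes. Sdc2, which has been linked to vessel sprouting in zebrafish, ranged from 170 to 272. Sdc4, found at focal adhesions, ranged from 53 to 61. Sdc3 made up 74.5 ± 1.60% of the summed syndecan level per kb, Sdc1 19.1 ± 1.00%, Sdc2 4.61 ± 0.86% and Sdc4 1.79 ± 0.16%. The exons of Sdc3 share 8.35% of their length with Gm26716 on the opposite strand.

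Glypicans, which are held at the membrane by a lipid anchor, were low. No glypican had a mean of 1000, 5 of 6 were detected, and the summed level per kb was 1323 ± 40.5 for the syndecans, against 158 ± 16.9 for the glypicans, a ratio of 8.41 ± 0.66 (SD, n = 4). Gpc4 led at 87.0 ± 21.8 per kb, with normalised read counts from 149 to 278. It was 5.77-fold Gpc1, 3.45-fold Gpc2 and 4.14-fold Gpc3 per kb, and Gpc6, at 9.49 ± 4.06 per kb, was 0.109-fold Gpc4. Without library 4 Gpc4 was 6.83-fold Gpc3. Gpc5 was listed at 0 to 6.

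The make-up of the glypicans differed in library 4. Gpc4 was lowest there, and the other 5 glypicans, Gpc5 under the detection minimum among them, were each highest there, among 30.6% of detected genes that were highest and 33% that were lowest in that library. The value of Gpc5 there was 6, the number on which low values piled up in library 4. Gpc2 was highest by a small margin, with 79 against 64, 44 and 74 in libraries 1 to 3. Gpc1, a glypican of many tissues, had 106 in library 4, against 47, 46 and 53 in libraries 1 to 3, and library 4 lay apart from the rest. Gpc3, a regulator of body growth, had 111 in library 4, against 20, 30 and 65. Gpc4 made up 33.1% of the summed glypican level per kb in library 4, against 62.9%, 66.6% and 59.8% in libraries 1 to 3, with a mean of 55.6 ± 15.2% (SD, n = 4) or, without library 4, of 63.1 ± 3.41% (SD, n = 3). Marker sums of pericytes, photoreceptors and progenitors were highest in the same library, and their part in these values was not tested.

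Among the lower glypicans 5 pairs had overlapping values. Gpc3 against Gpc1 (21 ± 15.3 against 15.1 ± 6.90 per kb) had an adjusted p of 0.714 by the exact permutation test and turned on the scale as deposited, with a log2 difference of 0.28 per kb and of -0.36 as deposited. The pairs Gpc2 and Gpc1, Gpc6 and Gpc1, Gpc3 and Gpc2, and Gpc6 and Gpc3 also overlapped. Within libraries Gpc2 was nonetheless above Gpc1 in 4 of 4, by 0.27 to 1.17 on the log2 scale, and Gpc6 was below Gpc1 in 4 of 4, with differences from -1.32 to -0.043. Without library 4, Gpc2 against Gpc1 (log2 difference 0.97) and Gpc6 against Gpc1 (log2 difference -0.62) no longer did. Of the exons of Gpc2, which is known from developing neurons, 91.9% are shared on the same strand with Gm43720, which had a mean of 0.5, so that the value of Gpc2 is uncertain. In all, 8 members share exonic bases with another gene, those without a value here by at most 3.10% of their length.

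Of the proteoglycans with chondroitin or dermatan sulfate, Bgn was the one with a high level. Bgn (ENSMUSG00000031375, chrX:73483602-73495933) encodes biglycan, a small leucine-rich proteoglycan, and had 2976 in library 4, against 3454, 3408 and 3465 in libraries 1 to 3. Library 4 lay below the others, which spanned a narrow range, at 0.865 of their mean. Its level of 1375 ± 96.9 per kb overlapped that of Col18a1 and made up 99.8 ± 0.15% of the sum over Bgn, Vcan and Dcn (SD, n = 4). Vcan, which encodes the large proteoglycan versican, ranged from 5 to 32. Dcn, which encodes decorin, the close relative of biglycan, was listed at 0 to 6, 1.55 ± 1.52 per kb.

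Of the 16 enzymes that start, lengthen and sulfate the chain, 14 were detected, beside 56% of all genes, and 8 had a mean of 1000 or more, beside 19.7%. In several families 1 paralogue held most of the level. Of the xylosyltransferases, which place the first sugar, Xylt2 had 1406, 1297, 1188 and 1537 in libraries 1 to 4. Xylt1 ranged from 110 to 147 and stood at 14.0 ± 1.71 per kb, against 394 ± 43.4 per kb for Xylt2, 0.0356-fold (SD, n = 4). Xylt2 thus made up 96.5 ± 0.71% of their summed level per kb.

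Ext1 and Ext2, which together form the polymerase that lengthens the chain, were unequal. Ext1 had normalised read counts of 1520, 1595, 1838 and 1833 in libraries 1 to 4, and Ext2 (ENSMUSG00000027198, chr2:93661028-93822568) had 3751, 3906, 3696 and 3969. Per kb Ext1 stood at 221 ± 21.3, against 1051 ± 35.2 for Ext2, 0.211-fold, a log2 difference of -2.25 ± 0.14 (SD, n = 4). As deposited Ext1 was 0.443-fold Ext2, also with no overlap. Extl3, which adds the first glucosamine and so commits the chain to heparan sulfate, had 3229, 3247, 2909 and 2865, or 509 ± 33.8 per kb. Extl2, a related transferase, ranged from 587 to 695 and was 0.384-fold Extl3 per kb, and Extl1 was listed at 0 to 3. Ext2 held 53.2 ± 0.71% of the summed level per kb of these 5 genes, Extl3 25.8 ± 1.64%, Ext1 11.2 ± 1.19% and Extl2 9.87 ± 0.49%.

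The N-deacetylase/N-sulfotransferases, whose step opens the way for all later sulfation, were shared between Ndst1 and Ndst2. Ndst1 had 3667, 4141, 3184 and 3541 in libraries 1 to 4, and Ndst2 had 1671, 1695, 1600 and 1742. Per kb they overlapped, with 452 ± 49.3 for Ndst1 against 408 ± 14.4 for Ndst2, a log2 difference of 0.14 ± 0.13 (exact permutation test, adjusted p = 0.129), although Ndst1 was the higher in 4 of 4 libraries. The overlap depends on the choice of length and on library 3. As deposited Ndst1 was 2.17-fold Ndst2, and per kb of the longest transcript the log2 difference was 0.38, both with no overlap, and without library 3 the 3 values each were apart by a log2 difference of 0.18. Ndst3 ranged from 7 to 103 and Ndst4 from 0 to 1. Ndst1 made up 51.9 ± 2.69% and Ndst2 47.0 ± 1.94% of the summed level per kb (SD, n = 4).

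The later enzymes, other than Hs6st2, were present at middle levels. Glce, the epimerase that turns glucuronic into iduronic acid, had 1264, 1095, 1207 and 931 in libraries 1 to 4. Hs2st1, which sulfates iduronic acid, had 1668, 1625, 1630 and 1520. Both were lowest in library 4, Hs2st1 by a small margin. Hs3st1, known for making the site that binds antithrombin, ranged from 676 to 849 and was the highest of this group per kb, at 400 ± 37.2, against 261 ± 10.3 for Hs2st1 and 232 ± 30.2 for Glce (SD, n = 4). This order was not among the tested pairs and turned as deposited, where Hs3st1 had a mean of 761, against 1611 for Hs2st1 and 1124 for Glce, and its share of the group was 37.9% per kb but 18.5% as deposited. The 6-O-sulfotransferases were unequal: Hs6st1, which ranged from 418 to 677, stood at 155 ± 30.0 per kb, 25.5-fold Hs6st2 at 6.09 ± 6.61 per kb. The size of this fold rests on library 3, where Hs6st2 had 70, and it was 58.4-fold without that library. Hs6st2 ranged from 6 to 70, and its values in libraries 1 and 2 were the numbers 9 and 6 on which low values piled up. Hs6st1 shares 12% of its exonic length with Gm37335 on the opposite strand.

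**Figure D4:**
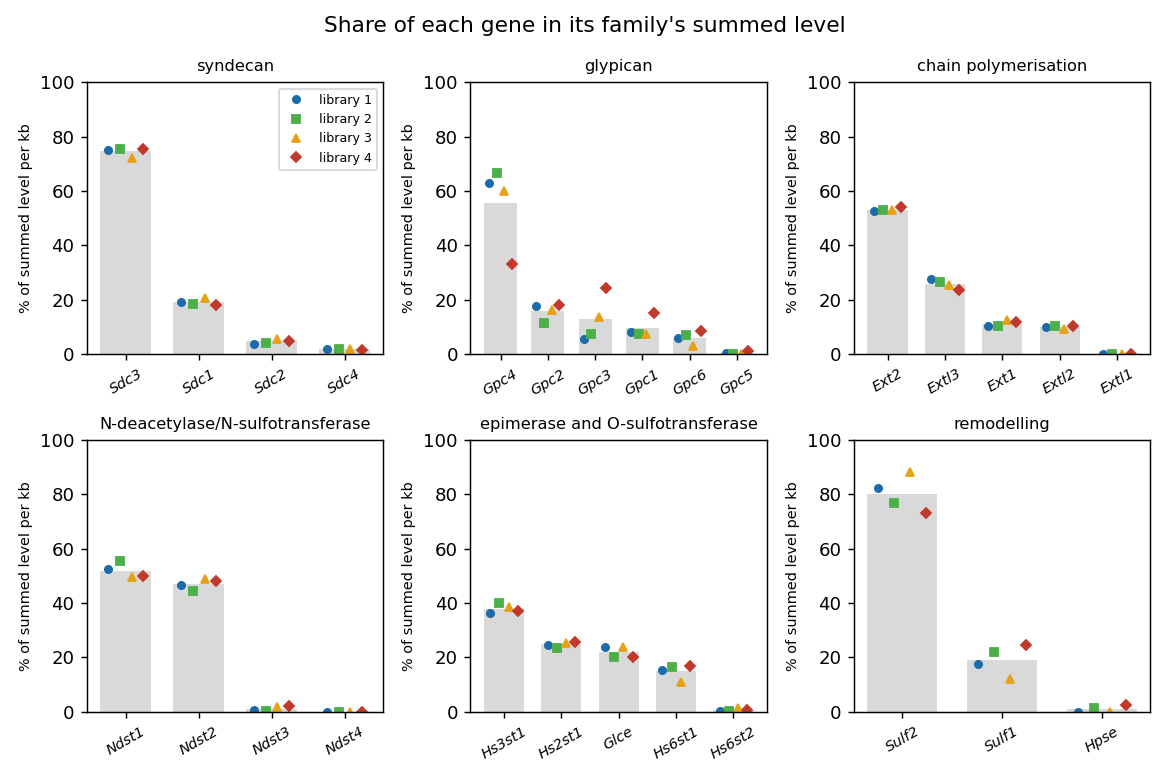
Share of each gene in the summed level per kb of its family, in percent; grey bars are means over the 4 libraries and markers the single libraries. Sdc3, Ext2 and Sulf2 hold more than any other gene of their families, Ndst1 and Ndst2 share theirs, and the share of Gpc4 is 33.1% in library 4, against 59.8% to 66.6% in the others.

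Genes that trim finished chains were low. Sulf2, a sulfatase that removes 6-O-sulfate from chains outside the cell, ranged from 202 to 301, and its relative Sulf1 from 61 to 112. Per kb Sulf1 stood at 11.4 ± 3.49, against 48.9 ± 9.59 for Sulf2, 0.234-fold (SD, n = 4). Sulf2 held 80.1 ± 6.53% of the summed level per kb of this group. Hpse, which encodes heparanase, was listed at 0 to 5.

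The spread between libraries is given beside that of other genes of like level. Of the 15 members with a mean of at least 1000, 8 had an SD under 5% of the mean, beside 50.6% of all genes at this level, and 11 an SD under 10%, beside 84.7%. The SDs ran from 0.326% for Nid2 and 1.11% for Col18a1 to 13.1% for Glce and 30.7% for Hspg2. Of the 17 other detected members, Gpc1, Gpc3, Gpc6, Vcan, Ndst3 and Hs6st2 had an SD of at least 40% of the mean, beside 23.3% of all detected genes under 1000. In library 4 alone, 9 detected members were highest, beside 30.6% of all detected genes, and 11 were lowest, beside 33%. The corresponding counts were 4 and 6 in library 1, 8 and 5 in library 2, and 10 and 10 in library 3, beside 20.3% and 21%, 20.2% and 21.4%, and 27.1% and 22.3% of detected genes.

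Other genes of the pathway and its ligands were counted from 4 lists, as a frame for the set. Of 28 other genes of heparan sulfate supply and breakdown, 25 were found and 21 of them detected, with a median level of 410 per kb among those detected. The highest per kb were Slc35b3 (927 ± 43.6) and Slc35b2 (715 ± 23.4), carriers of the sulfate donor into the Golgi, and Gusb (774 ± 25.6), the lysosomal glucuronidase. Hpse2 was listed at 0 in all libraries. Of 18 enzymes of chondroitin and dermatan sulfate, 17 were found and detected, with a median of 200.5 per kb, led by the sulfotransferase genes Chst7 (811 ± 16.4), Chst14 (403 ± 6.85) and Chst15 (369 ± 39.9).

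Further core proteins were listed with 29 genes, of which 23 were detected, with a median level of 35.7 per kb. Aplp2, a relative of the amyloid precursor (1843 ± 28.1 per kb), the VEGF co-receptor gene Nrp1 (1633 ± 44.0 per kb) and Spock2, which encodes a testican (1539 ± 38.7 per kb), were highest, and Fmod was listed at 0 throughout. Of 25 ligands and receptors that bind heparan sulfate, 23 were detected, with a median of 190 per kb. Highest were Kdr, which encodes the VEGF receptor VEGFR2 (1846 ± 22.7 per kb), the matrix protein gene Sparc (1447 ± 26.8 per kb) and Robo4, an endothelial guidance receptor (1169 ± 16.5 per kb). The summed normalised read count of these 25 genes was 48045 in library 4, against 49557 to 51005 in the others. For the other core proteins it was 46367 against 47465 to 48190.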

How the data were processed

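RNA-seq libraries from P6 retinal ECs (n = 4, 1 group) were read from the table deposited by the authors. The authors made each score from reads per Ensembl gene by normalising between libraries and rounding before they deposited it, as judged from whole numbers with near-equal totals. Their normalisation, aligner, build and annotation for these mouse samples are not given in the sources used here. The submitters' processing notes name FastQC. Gene positions fit GRCm38 (99.2% of matched identifiers equal GENCODE M21). The totals differed by 1.17%, so that no count model was fitted. Levels per kb used the union of exons, known for 99.8% of genes. Pairs were compared by exact permutation tests on log2(value + 1), which understates differences of low genes. SDs were set against a lowess trend (fraction 0.2, 3 iterations, robust z above 3), and 1 library far from the rest was called by Dixon's ratio above 0.829. Members, pairs and lists were chosen with earlier results of these data known. Values in every library were printed for members with a mean of at least 1000, those with 1 library apart or beyond the trend, and pairs whose order turned; the 3 highest per kb were named from each list. Alternatives were other lengths, pseudocounts (10), thresholds, scaling and leaving out each library. Scripts used Python 3.11.15, numpy 2.4.6, pandas 2.3.3, scipy 1.17.1 and statsmodels 0.14.6 and were tested on simulated data. Sequences are from RefSeq. Protein sequences were not used here.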

Additional observations from a re-analysis of the deposited data

Results flagged for a closer look

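Of 49 groups of 4 values tested for 1 library far from the rest, which were the 37 genes and the 12 gene lists, 4 stood apart, where chance gives about 1 in 20, or 2.45. Among all detected genes the share was 6.3%. Sdc1 had 877 in library 3, against 766 to 771 in the other libraries. Gpc1 had 106 in library 4, against 46 to 53. Bgn had 2976 in library 4, against 3408 to 3465. The summed markers of other retinal neurons reached 2534 in library 4, against 1313 to 1361, with 5 of the 12 markers highest there. What set these values apart was not tested.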

How the results depend on the processing

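The reads behind each value are unknown, so that depth could not set an error, and members near or under 10 may rest on few reads. The number of detected members was 23 with a minimum mean of 100, 29 with at least 10 in every library and 36 with a minimum mean of 1, and 32 without any one library. Pairs with no overlap numbered 26 as deposited and from 29 to 31 when 1 library was left out, where 3 against 3 cannot give a p under 0.1. The order of 2 pairs turned as deposited, Agrn minus Col18a1 (log2 difference 0.047) and Gpc3 minus Gpc1 (-0.36), and Hspg2 minus Agrn (-0.42), Hspg2 minus Col18a1 (-0.38) and Gpc6 minus Gpc2 (-0.96) then overlapped, since values were not divided by length. Members beyond the trend numbered 0 to 1 when 1 library was left out, with 0 without library 4. Of the pair differences under another length, pseudocount or scaling, 133 kept direction and side of the threshold, 2 came past it, 3 fell short of it and 2 reversed. With 1 library left out, where only overlap could be judged, 137 were as before and 3 no longer overlapped. Of the alternative shares of the leading genes, 47 moved by less than the spread between libraries and 13 by more, all of these under another length or none. Dixon's ratio was not run on 3 libraries, since the threshold used is that for 4 values. No paired analysis of sample groups was possible because the 4 libraries form 1 group. The direction of gene pairs within libraries, an alternative chosen after seeing the data, was the same in 4 of 4 libraries for 32 pairs.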
